A study of Mus musculus with 12 samples.

Results

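The comparison described here is that of 3T3-L1 cells labelled FHL2 with 3T3-L1 cells labelled control, over both days of the study at once, and it uses all 12 of the 12 libraries of the series. The 3T3-L1 line is a mouse fibroblast line that turns into fat cells under hormonal induction, and the labels class it as mesenchymal stem cells. The 6 libraries labelled FHL2 came from cells that carried an FHL2-GFP construct (genotype label FHL2 overexpression), and the 6 control libraries from cells with a GFP construct alone (CTRL-GFP). Each side holds 3 libraries of day 0, when the cells were post-confluent and not yet induced, and 3 libraries of day 2, after exposure to insulin, dexamethasone and isobutylmethylxanthine in fetal bovine serum. A model with a term for the day and a term for the line gave each gene 1 log2 fold change, FHL2 minus control, that holds over both days. The labels do not say how the construct was delivered, what drives it, or whether each construct was studied in more than 1 cell population. A property of the cell population and an effect of the construct therefore cannot be told apart. The labels also do not say that the 3 libraries of a group came from separate cultures, so every p-value measures only the spread between these libraries, which may be technical. Levels are CPM, counts scaled to a common library total with TMM factors. In these bulk libraries, fewer cells that make a transcript and less of it per cell cannot be told apart.

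FHL2 is a protein built from LIM domains, zinc-binding folds that hold other proteins, and it acts as a cofactor of transcription factors and at sites where cells adhere to the matrix. NFAT5 is the transcription factor that switches on osmolyte carriers and chaperones when the surroundings become hypertonic, and the series title joins it with FHL2. During the first days of adipogenic induction 3T3-L1 cells divide again, raise their use of glucose and rebuild the matrix around them. Hypoxia-inducible factors raise glycolytic enzymes by binding short DNA elements near their genes, and the EGLN enzymes mark these factors for destruction when oxygen is present.

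Total counts ran from 10047708 to 21872139 per library. The spread between libraries of a group, as edgeR's biological coefficient of variation, was 0.463 at day 2 and 0.121 at day 0. At day 2, control replicate 3 and FHL2 replicates 1 and 2 had the fewest genes with a count, 12689 to 14158, whereas the other 3 had 15065 to 16131. The day 0 libraries had 17977 to 18811. Differences between the lines in the number of genes with a count and in the mitochondrial share of the counts did not pass a test against the spread between libraries. The mean difference was -211.7 genes (exact permutation test within days, 2-sided, p = 0.75) and 0.293 percentage points (exact permutation test, p = 0.065). The total differed by 2583000 counts (exact permutation test, p = 0.09). These p-values were 0.75, 0.18 and 0.18 after Benjamini-Hochberg adjustment over 4 library measures, and 0.005 is the smallest this design allows. They depended on single libraries. Without control day 0 replicate 1, the unadjusted permutation p was 0.015 for the total and 0.02 for the mitochondrial share. Without FHL2 day 2 replicate 3, it was 0.02 for the mitochondrial share. Preadipocyte and anti-adipogenic genes summed to 7525 to 9380 CPM per library over 24 genes in the table. Dlk1 alone, whose day 0 values are given below, made up most of that sum at day 0. In each group 2 or 3 of the 24 had no count. The summed level of 14 muscle markers stayed between 3.47 and 12.9 CPM, and that of 10 epithelial markers at or under 3.60 CPM.

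Fhl2 (ENSMUSG00000008136), the gene that the construct names, was called neither higher nor lower in the libraries labelled FHL2. The control libraries held 58.9, 60.98 and 63.6 CPM at day 0 and the FHL2 libraries 67.4, 58.8 and 61.99 CPM. At day 2 the values were 13.9, 14.2 and 20.99 CPM in control and 18.7, 9.92 and 22.6 CPM in FHL2. The libraries of both lines overlapped at both days, and the log2 fold change over both days was 0.054 (SE 0.16, adjusted p = 0.927 by edgeR's quasi-likelihood test, exact permutation p = 0.905). No source used here says whether reads from the construct fall on the mouse gene. Fhl2 therefore does not check the labels, and every direction below follows them. Nfat5 (ENSMUSG00000003847) stood at 731, 637 and 519 CPM in control and 483, 594 and 515 CPM in FHL2 at day 0, and at 317, 248 and 244 CPM and 293, 199.7 and 118 CPM at day 2. Its log2 fold change was -0.33 (SE 0.16, adjusted p = 0.418), with overlapping libraries at both days.

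Over both days 170 of the 14435 genes tested were called at an adjusted p under 0.05, 1.18% of them. Of these, 59 (0.409%) were higher and 111 (0.769%) lower in the libraries labelled FHL2. The differences were mostly moderate, since 7 of the higher and 16 of the lower genes differed at least 2-fold. In 156 called genes (1.08% of those tested) the libraries of the lines did not overlap within day 0 nor within day 2, 55 higher (0.381%) and 101 lower (0.7%). Such separation without regard to the call was seen in 591 genes (4.09%), 278 of them higher (1.93%) and 313 lower (2.17%). Fosl1, a subunit of the AP-1 transcription factor that was picked after its values were seen, is an example of the 14 called genes that were not apart at both days. Its day 0 values were 22.6, 17.2 and 19.7 CPM in control and 12.97, 16.8 and 17.9 CPM in FHL2, and its day 2 values were 202, 299 and 219 CPM and 55.8, 77.5 and 64.9 CPM (log2 fold change -1.13, adjusted p = 0.0301). The call of Fosl1 was lost without any 1 of FHL2 day 0 replicate 1, control day 2 replicates 1 and 2 and FHL2 day 2 replicates 1, 2 and 3 (adjusted p up to 0.111).

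All 170 called genes had the same direction at both days, against 58.4% of all genes tested. The call itself draws on both days, so that count is a description. Tested at each day in 1 fit of all 12 libraries with a shared spread, 7 genes were called at day 0 (0.0485% of those tested). At day 2, 299 were called (2.07%). All 7 genes of day 0 and 100 of the 299 of day 2 were among the 170. In this fit 69 of the 170 were called at neither day. With each day fitted alone, the order was the reverse, with 247 genes called at day 0 and 53 at day 2. The difference was the larger at day 2 in 42 of the 59 higher genes (71.2%) and in 81 of the 111 lower genes (73.0%), beside 69.5% of all genes. The test of whether the line difference changed between the days called 1 gene (0.00693%), which was not among the 170, and 996 genes had an unadjusted p under 0.05 in it. Leaving out 1 library from the fit of all 12 gave 2 to 10 calls at day 0, the fewest without FHL2 day 0 replicate 3. At day 2 it gave 153 to 425, the fewest without FHL2 day 2 replicate 2 and the most without FHL2 day 2 replicate 1. At an unadjusted p under 0.05 there were 1844 genes over both days, 600 at day 0 and 2611 at day 2.

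The count of 170 depended on single libraries. Leaving out 1 library at a time gave 76 to 156 calls. It fell to 87 without FHL2 day 0 replicate 1, to 102 without FHL2 day 0 replicate 3, to 93 without control day 2 replicate 1, to 76 without control day 2 replicate 2, to 82 without FHL2 day 2 replicate 2 and to 94 without FHL2 day 2 replicate 3. Of the 170 genes, 60 were called in all 12 of these fits, 15 higher and 45 lower. With all 12 libraries and a block for the replicate number, 65 of the 170 were called in the same direction. A fit without the 3 libraries of day 2 that had the fewest genes keeps only 1 FHL2 library at day 2. Its counts of called genes are listed below with the other processing settings. No conclusion is therefore drawn from them.

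**Figure D1:**
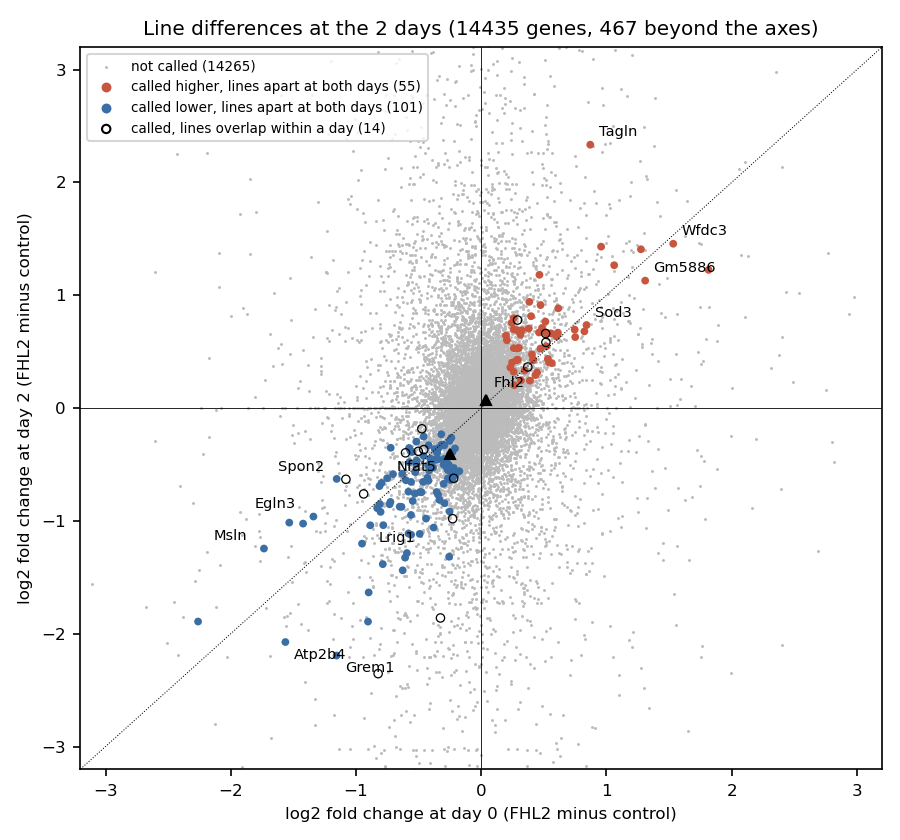
Log2 fold change of each tested gene between the lines (FHL2 minus control) at day 0 on the x axis and at day 2 on the y axis, with the 170 genes called over both days in colour and the dotted line marking equal differences. The called genes lie in the upper right and lower left quadrants, and Fhl2 and Nfat5, drawn as triangles, lie among the uncalled genes.

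Among the genes called over both days, 6 were called in both day contrasts of the fit of all 12 libraries (0.0416% of the genes tested). No gene was called at both days in opposite directions. Sod3, Thy1 and the predicted gene Gm5886 were higher and Lrig1, Spon2 and Adamts2 lower in the libraries labelled FHL2. With each day fitted alone, 13 genes were called at both days, 2 higher and 11 lower. Sod3, Thy1 and Gm5886 therefore cannot all be among those 13. Sod3 (ENSMUSG00000072941) encodes the extracellular superoxide dismutase, a secreted enzyme that removes superoxide outside cells. Its level was 262, 235 and 251 CPM in the control and 441, 438 and 461 CPM in the FHL2 libraries at day 0. At day 2 it was 618, 589 and 564 CPM in control and 1075, 948 and 925 CPM in FHL2, so the lines were apart at both days while the gene rose with the day in both. The log2 fold change was 0.79 (SE 0.058, 1.73-fold, adjusted p = 8.23e-06), with 0.84 at day 0 and 0.74 at day 2. Thy1 (ENSMUSG00000032011) is a surface glycoprotein of fibroblasts and of adipocyte precursors. It stood at 190.1, 199 and 209 CPM against 292, 287 and 304 CPM at day 0, and at 239, 215 and 230.3 CPM against 309.6, 291 and 302 CPM at day 2, control named first. The lowest FHL2 library was above the highest control library at each day (log2 fold change 0.48 with SE 0.059, adjusted p = 0.000966). Gm5886 (ENSMUSG00000108106), a predicted gene model of no stated function, had 116, 102 and 97.6 CPM in control and 290.1, 229 and 262 CPM in FHL2 at day 0. Its day 2 levels were 96.3, 95.5 and 97.05 CPM and 159, 191 and 281 CPM, a 2.33-fold difference over both days (log2 fold change 1.22 with SE 0.12, adjusted p = 0.000107). A predicted model can share reads with a near-identical copy, so this value is uncertain.

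Lrig1 (ENSMUSG00000030029) encodes a membrane protein that restrains growth factor receptors, among them the epidermal growth factor receptor. Control libraries held 53.1, 51.6 and 53.5 CPM and FHL2 libraries 31.6, 26.8 and 27.2 CPM at day 0. After induction the levels were 124, 124 and 102 CPM and 56.2, 55.8 and 58.6 CPM, so Lrig1 rose with the day in both lines and the lower level of the FHL2 libraries remained. The log2 fold change was -0.96 (SE 0.084, 1.95-fold lower, adjusted p = 4.48e-05). Spon2 (ENSMUSG00000037379), a secreted matrix protein of the spondin family, was at 31.6, 33.5 and 31.4 CPM in control and 14.7, 15.97 and 12.7 CPM in FHL2 at day 0. At day 2 it reached 252, 292 and 216 CPM in control and 156, 185 and 152 CPM in FHL2. The log2 fold change was -1.15 at day 0 and -0.63 at day 2, a change of 0.53 that did not pass the interaction test (adjusted p = 0.592). Adamts2 (ENSMUSG00000036545), the protease that trims the amino-terminal propeptide of fibrillar procollagens, had 71.98, 66.8 and 77.5 CPM in control and 43.6, 44.7 and 44.4 CPM in FHL2 at day 0. Its day 2 levels were 225, 193 and 206 CPM and 141, 143 and 132 CPM (log2 fold change -0.64 with SE 0.069, adjusted p = 0.000361). Mmp9, the gelatinase B of the matrix metalloproteases, was the only other gene called at day 0 in the fit of all 12 libraries. It was at 94.6, 99.2 and 107 CPM against 57.9, 63.3 and 61.1 CPM at day 0 and at 49.7, 54.97 and 57.7 CPM against 38.5, 45.98 and 42.6 CPM at day 2. The lines were apart both times (log2 fold change -0.54, adjusted p = 0.00999 over both days and 0.127 for the day 2 contrast of the fit of all 12 libraries). All 7 genes were called over both days in each of the 12 fits that left out 1 library. The count of genes called in both day contrasts was 2 to 7 in those fits. It was 2 without control day 0 replicate 3 or FHL2 day 0 replicate 3, and 3 without control day 0 replicate 2 or FHL2 day 0 replicate 2.

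**Figure D2:**
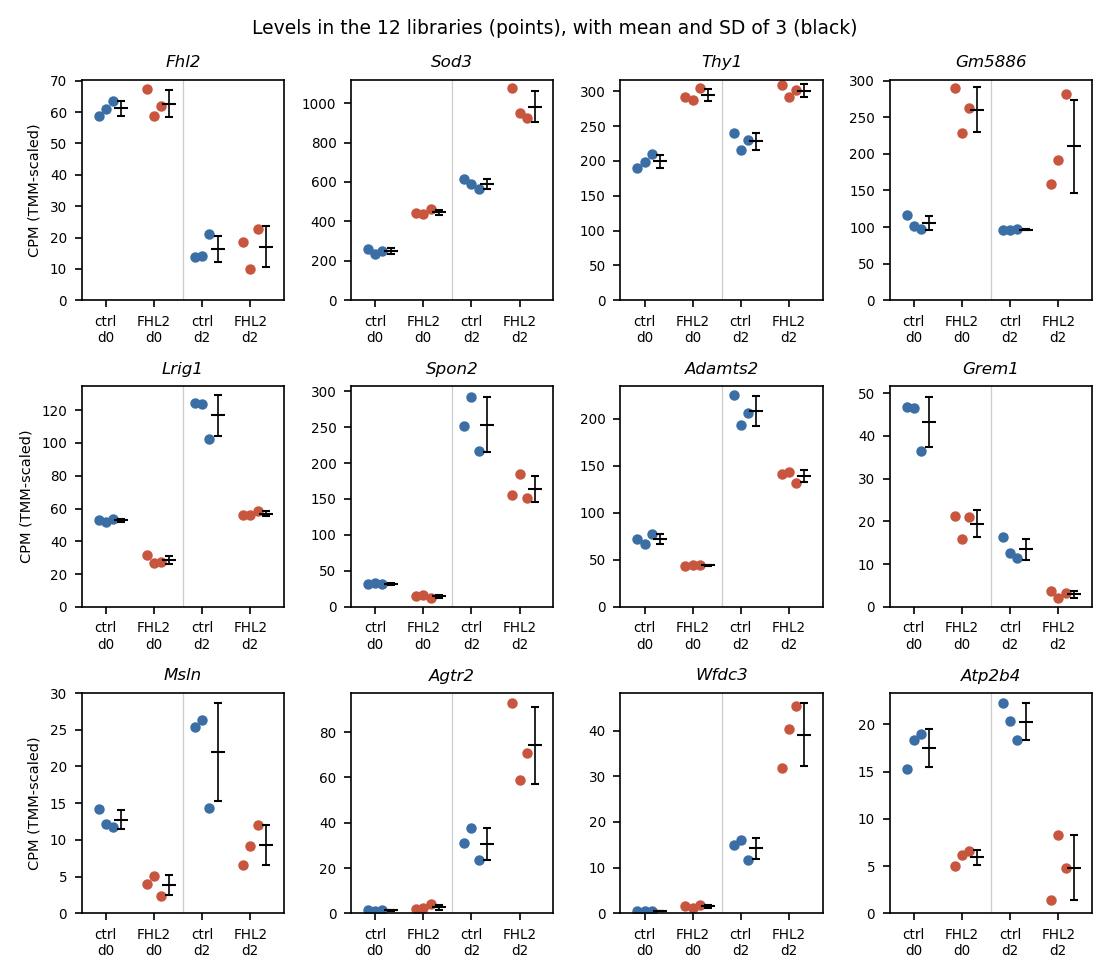
Level of 12 genes in each library (y axis, TMM-scaled CPM, from 0), grouped on the x axis as control and FHL2 at day 0 and at day 2, with points for libraries and black marks for the mean and SD of 3. Apart from Fhl2, the control and FHL2 libraries of the genes drawn do not overlap at either day, whichever way the gene moved with the day.

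Genes around BMP signalling were called in both directions. The secreted protein of Grem1 binds BMP ligands outside the cell and keeps them from their receptors, and the Id genes are known targets of BMP signalling. Of 33 tested genes of the BMP and TGF-beta pathway 3 were higher and 2 lower (15.2% called, beside 1.18% of all genes). The median log2 fold change of this list was 0.0057, beside 0.00045 over all genes. Grem1 (ENSMUSG00000074934) was at 46.8, 46.6 and 36.4 CPM in control and 21.3, 15.8 and 21.1 CPM in FHL2 at day 0, and at 16.2, 12.6 and 11.5 CPM and 3.61, 2.05 and 3.15 CPM at day 2. It was 3.08-fold lower over both days (log2 fold change -1.62 with SE 0.21, adjusted p = 0.00125). The libraries of the lines did not overlap at either day, and Grem1 was called in each fit that left out 1 library. Among the higher members, Id2 and Id4 encode inhibitors of helix-loop-helix transcription factors. Id2 stood at 31.5, 32.2 and 31.8 CPM against 44.4, 38.1 and 42.1 CPM at day 0 and at 16.2, 18.96 and 15.6 CPM against 39.05, 27.8 and 30.8 CPM at day 2, control first (log2 fold change 0.66, adjusted p = 0.0246). Id4 stood at 9.27, 9.07 and 7.85 CPM against 13.99, 14.5 and 15.5 CPM at day 0 and 17.8, 10.7 and 10.8 CPM against 21.8, 20.7 and 21.4 CPM at day 2 (log2 fold change 0.72, adjusted p = 0.0426). Both were apart at both days, yet the call of Id2 was lost without any 1 of FHL2 day 0 replicates 1 and 3, control day 2 replicates 1 and 2 and FHL2 day 2 replicate 3 (adjusted p up to 0.0726), and that of Id4 held in 1 of the 12 such fits, the one without control day 2 replicate 1 (adjusted p up to 0.115). Ltbp1, which stores latent TGF-beta in the matrix, was the other lower member (log2 fold change -0.42, adjusted p = 0.0391). Its day 0 libraries overlapped, and its call held in 2 of the 12 fits (adjusted p up to 0.113).

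Growth factor and hormone signalling genes were also among the called. Of 18 insulin and IGF pathway genes 1 was higher and 2 lower (16.7% called), and of 33 growth factors and receptors 1 was higher and 2 lower (9.09%), beside 1.18% of all genes. Igfbp4 and Igfbp5 encode secreted proteins that bind insulin-like growth factors. Igfbp5 was at 3.03, 3.35 and 2.76 CPM in control and 2.24, 1.95 and 1.71 CPM in FHL2 at day 0, and at 56.5, 77.97 and 58.7 CPM and 32.7, 24.2 and 14.5 CPM at day 2. The lines were apart at both days, and the log2 fold change over both was -1.09 (SE 0.22, adjusted p = 0.0203). Igfbp4 was at 209, 236 and 235 CPM in control and 188, 192 and 191 CPM in FHL2 at day 0, and at 2069.6, 2617 and 2257 CPM and 1156, 1245 and 1277 CPM at day 2 (log2 fold change -0.59, adjusted p = 0.0131). The call of Igfbp5 was lost without any 1 of control day 2 replicates 1 and 2 and FHL2 day 2 replicate 2 (adjusted p up to 0.0692), and that of Igfbp4 without any 1 of FHL2 day 2 replicates 2 and 3 (up to 0.0588). Igfbp7 was higher (log2 fold change 0.32, adjusted p = 0.0457), a call that held in 1 of the 12 fits, the one without FHL2 day 2 replicate 1. Vegfd, a growth factor for lymphatic vessels, had 102, 106 and 104 CPM in control and 149, 145 and 157 CPM in FHL2 at day 0. At day 2 it had 171, 147 and 121 CPM and 208, 206 and 181 CPM (log2 fold change 0.48 with SE 0.08, adjusted p = 0.00824). Angptl4, a secreted inhibitor of lipoprotein lipase, was at 93.2, 85.2 and 100.01 CPM against 71.7, 66.5 and 75.05 CPM at day 0 and at 529, 494 and 498 CPM against 361, 356 and 337 CPM at day 2 (log2 fold change -0.46, adjusted p = 0.00183). Agtr2, the type 2 receptor of angiotensin II, was 2.28-fold higher over both days (log2 fold change 1.19 with SE 0.21, adjusted p = 0.00999). Its control libraries held 1.27, 1.03 and 1.59 CPM and its FHL2 libraries 1.69, 2.49 and 3.94 CPM at day 0, against 30.9, 37.8 and 23.7 CPM and 92.7, 59.1 and 70.9 CPM at day 2. Vegfd, Angptl4 and Agtr2 kept their calls in each fit that left out 1 library.

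Enzymes that build and cut the matrix were called mostly in the lower direction in the libraries labelled FHL2, the direction of 111 of the 170 called genes as well. Of 34 tested members of the list of matrix enzymes and inhibitors 9 were lower and 2 higher (32.4% called), beside 0.769% lower, 0.409% higher and 1.18% called of all genes. The median log2 fold change was -0.26, with -0.21 at day 0 and -0.28 at day 2. In all, 10 members were apart at both days in the lower direction and 2 in the higher, beside 2.17% and 1.93% of all genes tested. The ADAMTS proteases, which trim procollagens or cleave proteoglycans, held 4 of the 9 lower genes, Adamts2, Adamts4, Adamts9 and Adamts15. Adamts15 went from 3.84, 2.54 and 2.70 CPM in control to 58.1, 47.03 and 48.3 CPM with induction, and from 1.39, 1.37 and 0.617 CPM to 21.4, 29.4 and 24.6 CPM in FHL2. Its log2 fold change was -1.19 (SE 0.19, adjusted p = 0.00782). For Adamts4 the levels were 31.4, 30.3 and 35.1 CPM in control and 19.9, 26.6 and 17.7 CPM in FHL2 at day 0, and 17.5, 18.1 and 27.2 CPM and 10.8, 6.16 and 8.66 CPM at day 2 (log2 fold change -0.93, adjusted p = 0.0287). Adamts9 had a log2 fold change of -0.86 (adjusted p = 0.0206), and its lines overlapped at day 2. The calls of Adamts4 and Adamts9 held in 5 and 4 of the 12 fits that left out 1 library (adjusted p up to 0.0773 and 0.0726).

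P4ha1 and P4ha2 encode the catalytic subunits of collagen prolyl 4-hydroxylase, which stabilises the collagen helix. P4ha2 was at 61.5, 69.3 and 61.4 CPM in control and 49.4, 50.9 and 56.7 CPM in FHL2 at day 0, and at 363, 375 and 399 CPM and 194, 219 and 221 CPM at day 2 (log2 fold change -0.57 with SE 0.097, adjusted p = 0.00903). P4ha1 was at 297, 347 and 290.1 CPM against 233, 258 and 237 CPM at day 0 and at 379.7, 487 and 366 CPM against 303, 298 and 299 CPM at day 2 (log2 fold change -0.41, adjusted p = 0.0158). Its adjusted p rose to 0.0637 at most when FHL2 day 2 replicate 2 or 3 was left out, which ended the call. Plat, the tissue plasminogen activator, was lower with 97.98, 94.7 and 99.6 CPM in control and 68.6, 73.9 and 76.5 CPM in FHL2 at day 0, and 57.95, 58.1 and 57.7 CPM and 37.5, 34.5 and 46.3 CPM at day 2 (log2 fold change -0.48, adjusted p = 0.0111). The ninth lower member, the metalloprotease Mmp11, had a log2 fold change of -0.36 (adjusted p = 0.0426), and its call held in 2 of the 12 fits (adjusted p up to 0.124). Both higher members are protease inhibitors. Timp1, an inhibitor of metalloproteases, was at 75.96, 66.2 and 74.1 CPM in control and 117, 102 and 100.2 CPM in FHL2 at day 0, and at 135, 132 and 104 CPM and 161, 220.4 and 205 CPM at day 2 (log2 fold change 0.61 with SE 0.093, adjusted p = 0.00470). Serpine2, an inhibitor of thrombin and of plasminogen activators, was at 104, 95.5 and 101 CPM against 128, 119.7 and 119 CPM at day 0 and at 46.3, 54.8 and 42.95 CPM against 72.1, 75.1 and 85.6 CPM at day 2 (log2 fold change 0.48, adjusted p = 0.0188). The call of Serpine2 was lost without any 1 of FHL2 day 0 replicate 1, control day 2 replicate 1 and FHL2 day 2 replicate 2 (adjusted p up to 0.0661). The count of 9 lower members became 5 without FHL2 day 2 replicate 3.

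Among 21 collagen genes 2 were lower, Col18a1 and Col4a1 (9.52% called), and among 39 other matrix proteins 1 was higher and 2 lower (7.69%), beside 1.18% of all genes. Col18a1, the basement membrane collagen from which endostatin is cut, was at 67.8, 61.5 and 61.1 CPM in control and 39.1, 51.8 and 44.9 CPM in FHL2 at day 0, and at 196, 205 and 171 CPM and 111, 123 and 107 CPM at day 2. Its log2 fold change was -0.62 (SE 0.089, adjusted p = 0.00299). Col4a1, a chain of basement membrane collagen IV, had a log2 fold change of -0.39 (adjusted p = 0.0215), and the laminin chain gene Lamb1 -0.38 (adjusted p = 0.0181) and the nidogen gene Nid2 -0.37 (adjusted p = 0.0341) were lower as well. Dcn, the small proteoglycan decorin, was higher (log2 fold change 0.48, adjusted p = 0.0206). All 5 were apart at both days. Col18a1 kept its call in all 12 fits that left out 1 library, and Col4a1, Lamb1, Nid2 and Dcn kept theirs in 5, 7, 3 and 8 of them (adjusted p up to 0.0997, 0.0868, 0.119 and 0.0661).

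Genes of glycolysis and of the response to low oxygen formed the list with the largest share of called members, 10 of 26 tested (38.5%, beside 1.18% of all genes), and all 10 were lower. The list was known from earlier results on these libraries, so its count is a description. Its median log2 fold change was -0.56, with -0.25 at day 0 and -0.63 at day 2. Of the 26 members 15 were apart at both days in the lower direction, beside 2.17% of all genes tested. All 26 members had a log2 fold change below 0 over both days and 24 of them at each day. Of all 14435 genes tested, 7207 were below 0 over both days and 4339 at each day. In sum over the 28 genes in the table, the control libraries held 4446 to 5129 CPM and the FHL2 libraries 3961 to 3973 CPM at day 0. At day 2 the ranges were 16900 to 20060 CPM in control and 11400 to 13270 CPM in FHL2, apart at both days. Aldoa has 2 identifiers in the table, and the one with more counts was used.

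The called members cover most steps from glucose 6-phosphate to lactate. Gpi1 acts first, and Pfkl, the liver-type subunit of phosphofructokinase, carries the committed step. Pfkl was at 138, 157 and 133 CPM in control and 92.2, 102 and 95.4 CPM in FHL2 at day 0. With induction it reached 751, 872 and 874 CPM in control and 346, 508 and 440.5 CPM in FHL2 (log2 fold change -0.76 with SE 0.099, adjusted p = 0.00119). Tpi1, which interconverts the triose phosphates, was at 404, 492 and 461 CPM against 333, 333 and 318 CPM at day 0 and at 2186, 2511 and 2293 CPM against 1284, 1668 and 1489 CPM at day 2 (log2 fold change -0.56 with SE 0.073, adjusted p = 0.00119). Pgk1, which forms ATP from bisphosphoglycerate, was at 329.8, 411 and 340.2 CPM against 232, 232 and 234 CPM at day 0 and at 1094, 1567 and 1423 CPM against 760.3, 987 and 979 CPM at day 2 (log2 fold change -0.61 with SE 0.091, adjusted p = 0.00470). In each of these enzymes the highest FHL2 library was below the lowest control library of its day, while the level rose with induction in both lines. Pgam1 (-0.72), Eno1 (-0.44), Ldha (-0.40), Gpi1 (-0.38) and the pyruvate kinase gene Pkm (-0.33) had smaller or less stable log2 fold changes, with adjusted p-values of 0.0154, 0.0117, 0.0405, 0.0209 and 0.0170. Genes such as Pgk1, Tpi1, Eno1, Ldha and Pkm have near-identical copies elsewhere in the genome with which reads may be shared. The copy listed as Eno1b was lower too, with -0.55 (adjusted p = 0.00999).

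Outside the pathway itself, Egln3 and Pdk1 were the lowest of the 10 relative to control. Egln3 (ENSMUSG00000035105), an oxygen-sensing prolyl hydroxylase that is itself raised by hypoxia-inducible factors, was at 13.7, 15.3 and 12.02 CPM in control and 4.44, 7.03 and 4.75 CPM in FHL2 at day 0. At day 2 it was at 57.7, 83.04 and 47.7 CPM in control and 29.6, 41.6 and 25.7 CPM in FHL2 (log2 fold change -1.14 with SE 0.18, adjusted p = 0.00624). Pdk1 (ENSMUSG00000006494), the kinase that keeps pyruvate from the mitochondrial citrate cycle, was at 40.4, 47.4 and 33.8 CPM against 26.2, 24.7 and 30.4 CPM at day 0 and at 40.3, 61.6 and 64.05 CPM against 27.8, 23.9 and 24.9 CPM at day 2 (log2 fold change -0.84 with SE 0.15, adjusted p = 0.0111). Slc16a1, a carrier of lactate and pyruvate that is not in the list and was picked after its values were seen, was at 66.5, 52.7 and 60.2 CPM against 40.9, 42.3 and 45.6 CPM at day 0 and at 73.6, 103 and 98.6 CPM against 59.2, 48.03 and 56.4 CPM at day 2 (log2 fold change -0.61, adjusted p = 0.0107). The 16 members that were not called include Gapdh (log2 fold change -0.87, adjusted p = 0.171), Hk2 (-0.79, adjusted p = 0.133), Vegfa (-0.24, adjusted p = 0.462) and the glucose carrier Slc2a1 (-0.34, adjusted p = 0.0874). Egln3, Pdk1, Pfkl, Pgk1 and Tpi1 kept their calls in all 12 fits that left out 1 library. Pgam1, Eno1, Ldha, Gpi1 and Pkm kept theirs in 10, 11, 2, 6 and 7 of them. The count of 10 fell to 5 without FHL2 day 2 replicate 2 and to 6 without FHL2 day 2 replicate 3.

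**Figure D3:**
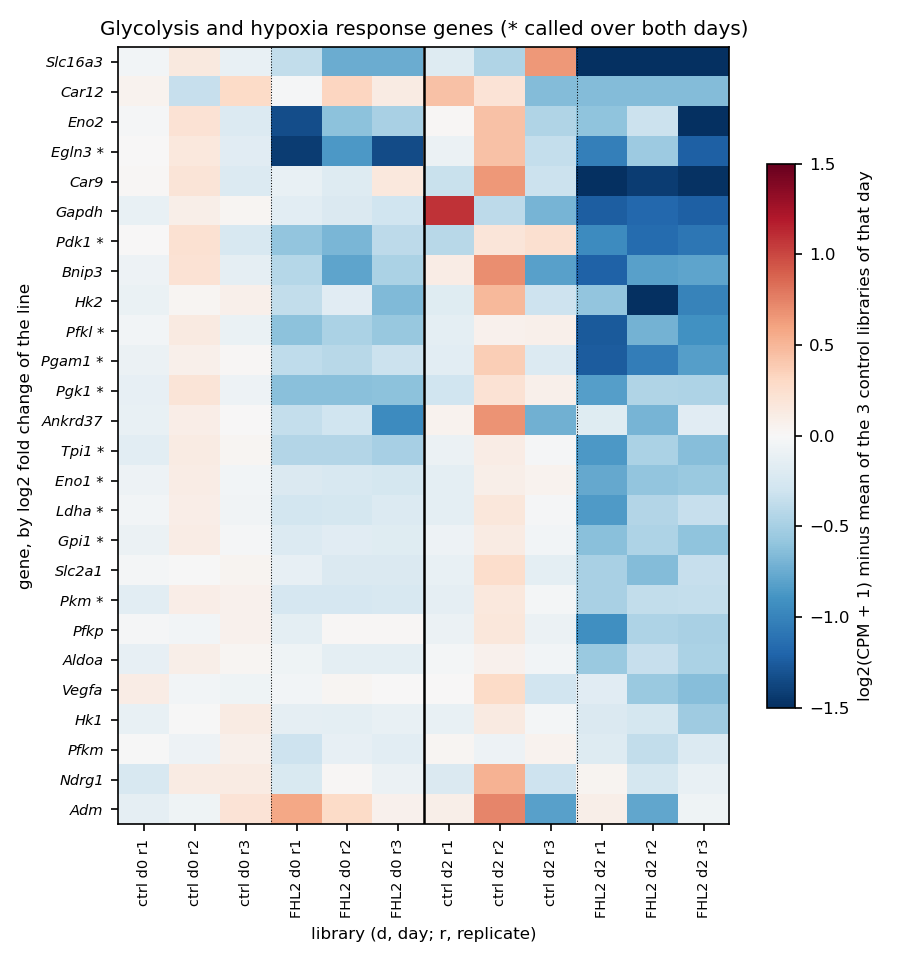
Level of the glycolysis and hypoxia response genes (rows, ordered by the log2 fold change of the line) in the 12 libraries (columns), as log2(CPM + 1) minus the mean of the 3 control libraries of the same day, with colours that saturate at 1.5 in either direction and stars on the 10 called genes. The FHL2 columns of the starred genes are below the control mean at both days, more deeply at day 2 apart from Egln3 and Pgk1.

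The promoters of Egln3, Pdk1 and Pfkl are shown because these 3 genes had the largest falls among the called members of the list. The stretch is the 250 bases before the start of transcription in RefSeq's table on GRCm38.p6, an earlier build than the GRCm39 of the counts, read 5' to 3' along the strand of the gene. Capitals mark ACGTG or GCGTG, the letters at the core of the elements that hypoxia-inducible factors bind, searched on both strands after the list's values had been seen. The regions are chr12:54203875-54204124 on the minus strand for Egln3, chr2:71872974-71873223 on the plus strand for Pdk1 and chr10:78009808-78010057 on the minus strand for Pfkl.
Egln3: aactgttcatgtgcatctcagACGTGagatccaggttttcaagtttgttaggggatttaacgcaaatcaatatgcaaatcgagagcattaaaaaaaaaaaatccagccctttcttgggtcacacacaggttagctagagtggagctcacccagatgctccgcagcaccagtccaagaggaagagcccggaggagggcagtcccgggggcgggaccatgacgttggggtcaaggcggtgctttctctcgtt
Pdk1: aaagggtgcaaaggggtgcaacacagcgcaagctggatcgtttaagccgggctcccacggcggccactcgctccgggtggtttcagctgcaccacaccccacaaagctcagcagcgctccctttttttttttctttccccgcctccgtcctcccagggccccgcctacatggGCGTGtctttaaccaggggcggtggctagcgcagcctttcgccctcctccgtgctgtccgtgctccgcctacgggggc
Pfkl: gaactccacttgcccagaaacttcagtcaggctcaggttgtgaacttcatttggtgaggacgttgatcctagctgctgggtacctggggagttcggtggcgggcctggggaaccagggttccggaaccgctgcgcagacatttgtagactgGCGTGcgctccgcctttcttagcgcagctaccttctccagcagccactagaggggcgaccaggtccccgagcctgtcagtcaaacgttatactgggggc
Each stretch held 1 match, at -229 in Egln3, -78 in Pdk1 and -99 in Pfkl from the start, and another listed start of Pdk1 had none. Of the 15 promoters in the table for the 10 called genes, 11 (73.3%) held the letters, beside 73.0% of the 37 promoters of all tested members of the list, 55.2% of those of all called lower genes, 49.0% of those of called higher genes, 55.3% of the 12700 promoters of tested genes and 38.6% of all 32851 promoters. The called members thus held the letters about as often as their whole list. The letters TGGAAA, the core to which NFAT5 and the other NFAT proteins bind, were in none of those 15. They were in 10 of the 49 promoters of called higher genes (20.4%), in 10 of the 116 of called lower genes (8.62%), in 15.2% of those of tested genes and in 18.6% of all. The tonicity element, a longer NFAT5 motif that contains TGGAAA, was in 6.12% of the promoters of the higher and 1.72% of those of the lower genes, beside 3.4% of tested genes. The table had a promoter for 41 of the 59 higher and 85 of the 111 lower genes. A match of letters is a description of the sequence and not a bound site.

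Genes of varied roles made up the rest of the 15 largest falls, counted over called genes that averaged 5 CPM or more and were apart at both days. Atp2b4 (ENSMUSG00000026463), a pump that carries calcium out through the plasma membrane, was at 15.2, 18.3 and 18.9 CPM in control and 4.99, 6.20 and 6.55 CPM in FHL2 at day 0. At day 2 it was at 22.2, 20.4 and 18.3 CPM and 1.39, 8.29 and 4.78 CPM, 3.52-fold lower over both days (log2 fold change -1.81 with SE 0.30, adjusted p = 0.00824). The surface protein gene Msln was at 14.2, 12.2 and 11.8 CPM against 3.97, 5.08 and 2.42 CPM at day 0 and at 25.4, 26.3 and 14.3 CPM against 6.59, 9.21 and 12.1 CPM at day 2 (log2 fold change -1.49, adjusted p = 0.00731). Emb, whose product embigin escorts monocarboxylate carriers to the membrane, was at 7.69, 10.6 and 8.77 CPM against 4.90, 4.40 and 5.13 CPM at day 0 and at 37.98, 42.8 and 24.1 CPM against 6.45, 11.9 and 9.93 CPM at day 2 (log2 fold change -1.41, adjusted p = 0.00834). Msln and Emb were thus apart at both days, and Emb by more after induction without passing the interaction test (adjusted p = 0.647). Chst1, a carbohydrate sulfotransferase, had a log2 fold change of -1.26 (adjusted p = 0.0140), the adaptor gene Bcar3 -1.08 (adjusted p = 0.00470) and the kinesin gene Kif26b -0.97 (adjusted p = 0.00470). These 6 genes kept their calls in all 12 fits that left out 1 library. The protease gene Adam8 (-1.27, adjusted p = 0.0210) and the small GTPase gene Rab3d (-1.08, adjusted p = 0.0436) completed the 15 largest falls, and their calls held in 6 and 0 of the 12 fits (adjusted p up to 0.0707 and 0.112).

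A pair of genes of low level was close to absent from the libraries labelled FHL2. They fall under the minimum of 5 CPM for named genes and were picked after their values were seen. Ror2 (ENSMUSG00000021464), a receptor for Wnt5a, had 36, 45 and 32 counts in the control and 2, 2 and 3 in the FHL2 libraries of day 0. At day 2 the counts were 43, 34 and 43 in control and 0, 0 and 3 in FHL2. Over the group, the ratio of control to FHL2, scaled for library size, was 18.5 at day 0 (113 against 7 counts, 95% interval 8.68 to 47.0) and 48.6 at day 2 (120 against 3 counts, 16.2 to 239). Ntng1 (ENSMUSG00000059857), a netrin-like membrane protein of axon guidance, had 133, 63 and 78 counts in control and 11, 7 and 12 in FHL2 at day 0. Its counts at day 2 were 36, 34 and 24 in control and 0, 3 and 0 in FHL2, and the ratios were 10.5 (274 against 30 counts, 7.16 to 15.8) and 38.1 (94 against 3 counts, 12.6 to 188). These intervals pool the libraries of a group and leave out the spread between them. They also treat each read as independent, which reads without molecular tags may not be, so the intervals may be too narrow. Both genes are among the 170, but they passed the filter on low counts through the control libraries, where they were high, so their calls are not given as support. Ror2 was the only called gene among 18 tested genes of the Wnt list (5.56%, beside 1.18% of all genes). That share rests on the call of Ror2 and is not given as support either.

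Large rises were spread over genes of varied roles. Wfdc3 (ENSMUSG00000076434), a small secreted protein with a protease inhibitor fold, was at 0.497, 0.540 and 0.552 CPM in control and 1.69, 1.12 and 1.80 CPM in FHL2 at day 0, and at 14.9, 16.1 and 11.7 CPM and 31.8, 40.3 and 45.3 CPM at day 2. It was 2.80-fold higher over both days (log2 fold change 1.48 with SE 0.19, adjusted p = 0.00103). Tagln, the actin-binding protein transgelin that marks contractile cells, stood at 32.7, 28.01 and 31.6 CPM against 61.3, 48.01 and 59.4 CPM at day 0 and at 2.11, 0.588 and 1.95 CPM against 8.53, 8.43 and 6.24 CPM at day 2. It fell with the day in both lines, and its log2 fold change between the lines was 1.44 (SE 0.27, adjusted p = 0.0158). Acta2, smooth muscle actin, was at 572, 556 and 654 CPM against 817, 679 and 823 CPM at day 0 and at 136, 102 and 138 CPM against 158, 221 and 235 CPM at day 2 (log2 fold change 0.54, adjusted p = 0.0239). Tagln and Acta2 were the called members among 24 tested actin cytoskeleton and SRF target genes, a list whose median was -0.049. Mdga1, an anchored surface protein of nerve cells, had a log2 fold change of 1.34 (adjusted p = 0.0131), and the matrix protein gene Matn4 0.69 (adjusted p = 0.0133). Wfdc3, Tagln, Mdga1 and Matn4 kept their calls in all 12 fits that left out 1 library, and Acta2 in 4 (adjusted p up to 0.0766). Hsf4 (1.18), the cathepsin gene Ctsk (0.81), Grb14 (0.75), Aplp1 (0.75), the clock repressor gene Nr1d1 (0.69) and the small RNA gene Bc1 (0.64) were the other log2 rises among the 15 largest. Their adjusted p-values ran from 0.0133 to 0.0421, and the calls held in 2 (Hsf4), 4 (Ctsk), 6 (Grb14), 11 (Aplp1), 7 (Nr1d1) and 5 (Bc1) of the 12 fits.

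Among 15 tested genes of the NFAT5 and tonicity response list 1 was lower (6.67%, beside 1.18% of all genes tested) and none higher, with a median of 0.028. The lower gene was Slc38a2, a sodium-coupled amino acid carrier, at 309, 292 and 276 CPM in control and 222, 218 and 214 CPM in FHL2 at day 0 and at 138, 124 and 137 CPM and 98.2, 77.1 and 79.6 CPM at day 2 (log2 fold change -0.53 with SE 0.076, adjusted p = 0.00292). The aldose reductase gene Akr1b3 had a log2 fold change of -0.025 (adjusted p = 0.955) and the myo-inositol carrier gene Slc5a3 0.21 (adjusted p = 0.629). Of 21 adipogenic transcription factors Id2 alone was called (4.76%). Pparg, the master regulator of fat cell formation, was at 9.77, 10.1 and 11.5 CPM in control and 9.17, 9.28 and 7.69 CPM in FHL2 at day 0, and at 22.3, 40.3 and 18.6 CPM and 11.1, 19.98 and 21.98 CPM at day 2 (log2 fold change -0.44 with SE 0.22, adjusted p = 0.413). Its lines were apart at day 0 and overlapped at day 2. The log2 fold change was -0.063 for Cebpa (adjusted p = 0.923) and -0.33 for Cebpb (adjusted p = 0.240), which were not called either.

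The 24 tested genes of the mature adipocyte had a median log2 fold change of -0.31, -0.079 at day 0 and -0.44 at day 2, and 2 were lower (8.33%, beside 1.18% of all genes called). Fabp5, a fatty acid binding protein, was at 58.2, 69.1 and 71.01 CPM in control and 32.5, 34.8 and 36.1 CPM in FHL2 at day 0, and at 142, 154 and 107 CPM and 48.8, 114 and 75.6 CPM at day 2. The lines were apart at day 0 and overlapped at day 2 (log2 fold change -0.85 with SE 0.16, adjusted p = 0.0158). Scd2, a fatty acid desaturase, had a log2 fold change of -0.31 (adjusted p = 0.0203). The call of Fabp5 was lost without any 1 of control day 2 replicates 1 and 2 and FHL2 day 2 replicate 3 (adjusted p up to 0.0660), and that of Scd2 held in 6 of the 12 fits (up to 0.0960). Fabp4, the fatty acid binding protein of fat cells, was at 1.40, 0.863 and 0.491 CPM in control and 0.423, 0.342 and 0.237 CPM in FHL2 at day 0. At day 2 its level was 19.6, 20.9 and 7.14 CPM in control and 8.32, 9.28 and 8.42 CPM in FHL2 (log2 fold change -1.10 with SE 0.34, adjusted p = 0.146). Fabp4 was not called in this fit and was called by DESeq2 (log2 fold change -1.11) and by limma-voom with library quality weights (-1.18). Adiponectin (Adipoq) had no count in any day 0 library, and at day 2 it had 43, 35 and 56 counts in control and 0, 34 and 0 in FHL2 (adjusted p = 0.608). Of 21 preadipocyte and anti-adipogenic genes, Thy1 and the stress-induced factor gene Ddit3 (0.41, adjusted p = 0.0395) were higher (9.52%). The call of Ddit3 held in 2 of the 12 fits that left out 1 library (adjusted p up to 0.109). Dlk1, the preadipocyte factor that holds back differentiation, had a log2 fold change of 0.049 (adjusted p = 0.807), with 5846, 6285 and 6828 CPM in control and 7029, 6706 and 6624 CPM in FHL2 at day 0.

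Of the glucocorticoid and cAMP response list 3 of 24 tested genes were lower (12.5% called, beside 1.18% of all genes), and its median was -0.20. Errfi1, a feedback inhibitor of the epidermal growth factor receptor, was at 31.6, 30.8 and 31.8 CPM in control and 21.8, 22.4 and 19.1 CPM in FHL2 at day 0, and at 194, 231 and 173 CPM and 141, 145 and 143 CPM at day 2 (log2 fold change -0.52 with SE 0.08, adjusted p = 0.00470). It kept its call in each fit that left out 1 library. The others were Angptl4 and the mTOR inhibitor gene Ddit4 (-0.41, adjusted p = 0.0206, 7 of the 12 fits). Of 25 integrins and cadherins 3 were lower (12%). Itgb5, an integrin subunit for vitronectin, was at 169, 178 and 189.8 CPM against 118, 121 and 121 CPM at day 0 and at 170.5, 139.99 and 152 CPM against 112, 129 and 120.3 CPM at day 2 (log2 fold change -0.47, adjusted p = 0.00624, all 12 fits). Cdh13 (-0.38, adjusted p = 0.0133) and Ncam1 (-0.35, adjusted p = 0.0409) were the others, with calls in 9 and 2 of the 12 fits. Sod3 was the 1 called member among 27 NRF2 targets and antioxidant enzymes (3.7%), Cxcl12 (-0.28, adjusted p = 0.0213, 5 fits) the 1 lower gene among 28 chemokines and NF-kB regulators (3.57%), and Ndn (-0.40, adjusted p = 0.0122, 10 fits) the 1 lower gene among 19 imprinted genes (5.26%). Ddit3 and the carrier gene Slc7a5 (0.37, adjusted p = 0.0270, 3 fits) were the 2 higher genes among 24 of the unfolded protein and integrated stress response (8.33%). Of 18 amino acid carriers, Slc7a5 was higher and Slc38a2 lower (11.1%).

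No member was called, beside 1.18% of all genes, in the lists of the FHL and NFAT families (8 tested), S phase and DNA replication (31), YAP and TEAD targets (21), G2 and mitosis (26), interferon-stimulated genes (36), MHC class I antigen presentation (16), cholesterol biosynthesis (24), p53 targets (18), guidance cues (35), mitochondrially encoded genes (10) and Hox and limb patterning genes (25). Their medians ran from -0.21 for cholesterol biosynthesis to 0.19 for the interferon-stimulated genes. The interferon list had medians of -0.14 at day 0 and 0.44 at day 2, on opposite sides of 0. Markers of other cell types held no called gene among 6 tested for bone and cartilage, 4 for macrophages and blood, 7 for endothelium, 2 for muscle and 1 for epithelium. Endothelial markers summed to 22.2 to 28.2 CPM in control and 22.5 to 25.3 CPM in FHL2 at day 0. At day 2 they summed to 21.95 to 24.5 CPM in control and 12.7 to 16.01 CPM in FHL2, lower in each FHL2 library. Their part in the results above was not tested.

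**Figure D4:**
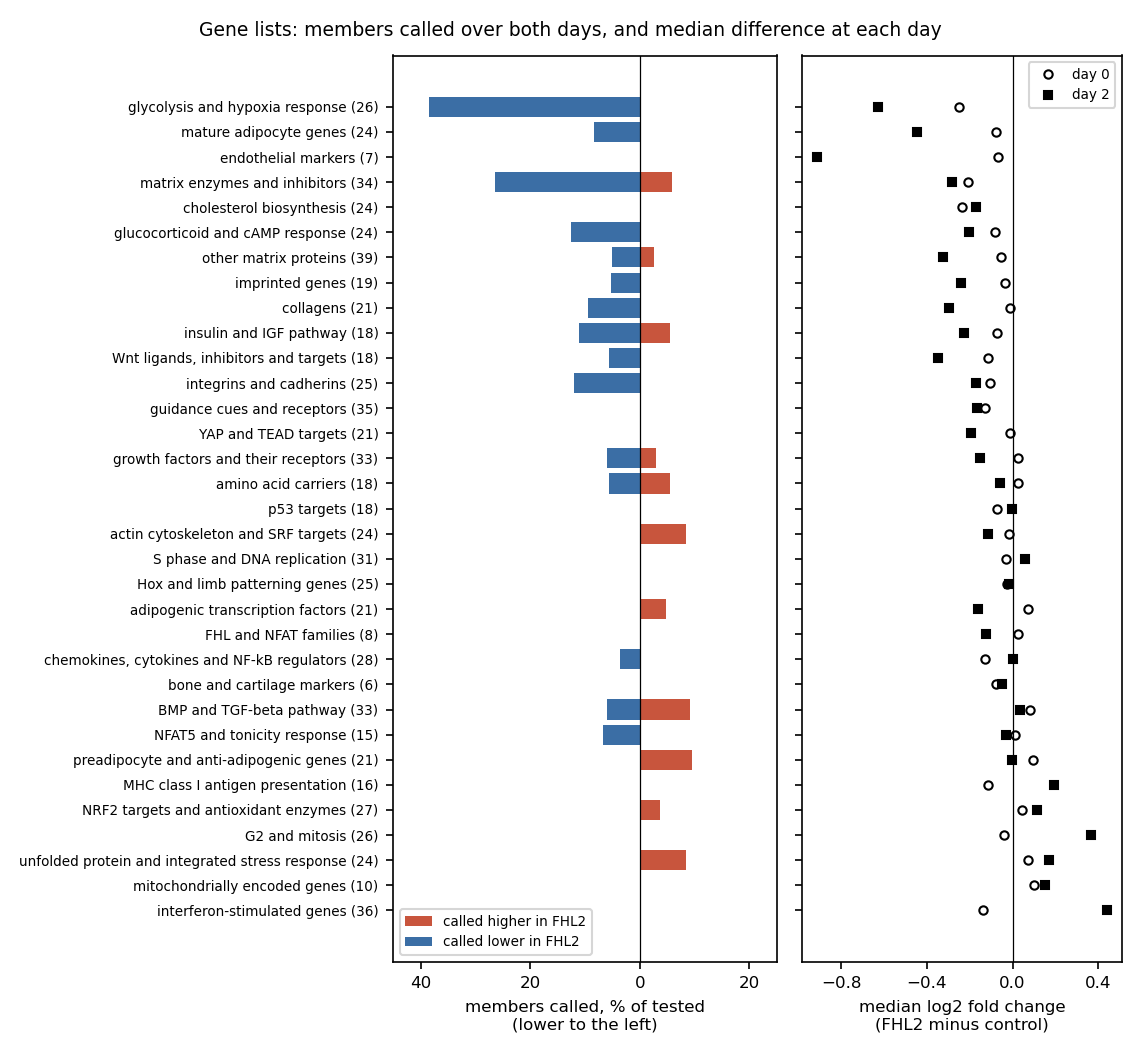
Share of the tested members of each list with at least 5 tested genes (number in brackets) that were called over both days, lower to the left and higher to the right, and the median log2 fold change of the list at day 0 (circles) and day 2 (squares). Glycolysis and hypoxia response genes reach 38.5% on the lower side, and matrix enzymes and inhibitors follow.

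The called genes also differed with the day. Of the 111 lower genes 74 (66.7%) rose from day 0 to day 2 and 23 (20.7%) fell, and of the 59 higher genes 33 (55.9%) rose and 17 (28.8%) fell. Over all genes 67% changed with the day, 31.0% upward and 36.1% downward. The called genes had a higher median level than all genes, 85.3 CPM in the lower and 81.5 CPM in the higher set against 20.5 CPM, and a higher median GC content of the transcript, 53.3% and 51.7% against 49.4%. The part of level and GC content in these shares was not tested.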

How the data were processed

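Polyadenylated RNA was sequenced in stranded libraries, per the labels' protocols. The authors deposited whole-number read counts for each Ensembl gene in 1 table, with a column per library. Per the submitters' processing notes, the build was GRCm39 (mm39), and the tools included HISAT2 2.2.1 and HTSeq 0.11.0, with Trimmomatic 0.39, FastQC 0.11.9, limma and R 4.1.0. Their roles and settings, strandedness and annotation release among them, are not given in the sources at hand. Reads shared by overlapping genes or near-identical copies could be split or lost in such counting. Symbols were matched by identifier for 52081 of 55414 rows, and 0 columns of per-library values were left out. Where a symbol had more than 1 identifier, lists used the one with most counts.

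Counts were filtered with filterByExpr by the 4 groups, which left 14435 genes, scaled by TMM and fitted with edgeR 4.0.16 in R 4.3.3. The quasi-likelihood model had a term for the day and a term for the line, over all 12 libraries. Values per day and the interaction came from a second fit with 1 mean per group. P-values are 2-sided, were adjusted by Benjamini-Hochberg over all genes tested, and called a gene under 0.05. Lines were apart where their libraries did not overlap in CPM. On counts simulated for these 14435 genes, the fit over both days recovered 46% of 100 changes of 1.5-fold and 79% of 100 of 2-fold. Of its calls 5.3% were false. The simulation gave each gene 1 spread for both days and changed only genes that averaged at least 5 CPM. In the data the coefficient of variation was 0.121 at day 0 and 0.463 at day 2. These rates are therefore those of the simulation, and many changes of 1.5-fold or less may be missed in the data. Depth was 10047708 to 21872139 counts.

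The comparison, the gene lists and the named genes were chosen with earlier results of these data known. Named genes are Fhl2, Nfat5, Pparg, Cebpa, Cebpb, Fabp4, Adipoq, Dlk1, Akr1b3 and Slc5a3, the 15 largest rises and 15 largest falls among called genes apart at both days with a mean of at least 5 CPM and no predicted name, and up to 3 called members of each of 36 lists. A further part of the rule, on genes called in the interaction as well, took none. The values of 1 gene that the rule takes are not reported here, though it is part of the counts. Others are marked as picked after their values were seen.

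Alternatives tried were scaling by RLE or upper quartile, leaving out the filter, 1 CPM in 3 libraries, DESeq2 1.42.0, limma-voom (limma 3.58.1) with and without library quality weights, each day alone, the replicate block, an offset for GC content and leaving out each library. Leaving out 3 day 2 libraries, a minimum mean of 5 CPM and the offset with the block were added after seeing the data. GC content was that of GENCODE M21, on the build before GRCm39, and promoters from RefSeq's table on GRCm38.p6, matched by symbol, the 250 bases before the start only.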

Additional observations from a re-analysis of the deposited data

Results flagged for a closer look

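Tnc, the matrix glycoprotein tenascin C, was the 1 gene whose difference between the lines changed from day 0 to day 2 by the interaction test. Its interaction log2 fold change was -1.30 (SE 0.17, adjusted p = 0.0276 by edgeR). The control libraries held 359.9, 341 and 361 CPM and the FHL2 libraries 417, 471 and 457 CPM at day 0, higher in each FHL2 library. At day 2 the levels were 375, 408 and 292 CPM and 206, 186 and 162 CPM, lower in each FHL2 library. Over both days together its log2 fold change was -0.31 (adjusted p = 0.536), so the gene is a counter-example to the shared differences. With 1 library left out the call held without control day 2 replicate 2, control day 2 replicate 3 or FHL2 day 2 replicate 1, and was lost without any other library (adjusted p up to 0.17). With the replicate block the interaction was -1.29 and the adjusted p 0.0529. Groups of 3 libraries were too small to screen for outlying libraries.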

How the results depend on the processing

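Unless stated otherwise, counts of called genes stayed within 1.5 times the reported values under RLE and upper-quartile scaling, 1 CPM in 3 libraries, a minimum mean of 5 CPM and the GC offset. With all 12 libraries, the genes called over both days (170) numbered 511 without a filter, 553 by DESeq2, 304 by limma-voom and 1181 with library quality weights, and those apart at both days (156) numbered 252, 373 and 375 without a filter, by DESeq2 and with quality weights. Of the 170, DESeq2 called 167, limma-voom 168 and the quality weights 170 in the same direction. In the order no filter, DESeq2, limma-voom and quality weights, the calls at day 0 (7) were 69, 93, 18 and 1277, and those at both days (6) were 32, 54, 10 and 44. Without a filter, by DESeq2 and with quality weights, the calls at day 2 (299) were 846, 997 and 109, and the interaction (1) gave 91, 73 and 6. The interaction gave 2 with upper-quartile scaling and 4 with the GC offset. With each day fitted alone, 247 genes were called at day 0, 53 at day 2 and 13 at both. Without the 3 libraries of day 2 that had the fewest genes, the counts were 277 over both days, 271 apart, 133 at day 0, 1672 at day 2, 63 at both days and 247 in the interaction. That fit keeps only 1 FHL2 library at day 2, which gives no spread for its group. Its counts are therefore not comparable with the others, and no conclusion is drawn from them. Lower glycolysis and hypoxia genes (10) numbered 18 without a filter and 16 with quality weights. The correlation of same-numbered deviations over 10454 genes was 0.28, -0.16 and 0.287 at day 0 and 0.062, -0.0182 and -0.00986 at day 2. Differently numbered libraries were not compared, so these values cannot settle whether the replicate numbers pair the libraries. The replicate block ended some calls that held in all 12 fits without 1 library. Among them were Pdk1 (adjusted p = 0.056 by edgeR), Slc16a1 (0.0536), Tagln (0.0695) and Chst1 (0.0751). With the replicate block the counts were 70 over both days (65 of them among the 170 in the same direction), 63 apart, 3 at day 0, 95 at day 2, 3 at both days, 0 in the interaction and 6 lower glycolysis genes. With the GC offset and the block they were 75, 65, 3, 76, 2, 0 and 4. Leaving out 1 library gave 76 to 156 over both days, 76 to 149 apart, 2 to 10 at day 0, 153 to 425 at day 2, 2 to 7 at both days, 0 to 6 in the interaction, 5 to 10 lower glycolysis genes and 5 to 9 lower matrix enzymes. The differences between the lines in library measures were 1708000 to 3398000 total counts, -696.5 to 164 genes with a count, the sign turning without control day 2 replicate 2 (164) or FHL2 day 2 replicate 1 (4.667), and 0.165 to 0.391 percentage points of mitochondrial counts. Single genes that were not called turned direction. Cebpa had 0.022 with quality weights, 0.021 with the GC offset and block and 0.117 without the 3 libraries. Akr1b3 had 0.047 without them. With 1 library left out Cebpa ranged from -0.147 to 0.033, Akr1b3 from -0.092 to 0.066 and Fhl2 from -0.051 to 0.172. The cause of these changes was not tested. No tested gene called over both days changed its direction in a fit that left out 1 library. Low counts limit, among others, Ror2, Ntng1, Adipoq, the day 0 values of Fabp4, Wfdc3, Agtr2 and Adamts15, and the day 2 control values of Tagln.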

Other observations

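The genes below were picked after their values were seen, all but Hspb8 and Cryab for calls that held in all 12 fits that left out 1 library, and belong to no list with a result above. Mif, a secreted cytokine, was at 108, 117 and 119.6 CPM in control and 80.5, 78.1 and 74.9 CPM in FHL2 at day 0, and at 397, 488 and 497 CPM and 187, 227 and 221 CPM at day 2 (log2 fold change -0.84 with SE 0.10, adjusted p = 0.000966 by edgeR). Chd3, a chromatin remodeller of the NuRD complex, was at 151, 139 and 163 CPM against 75.9, 91.1 and 91.5 CPM at day 0 and at 161, 176 and 115 CPM against 97.4, 75.9 and 77.2 CPM at day 2 (log2 fold change -0.83, adjusted p = 0.00103). Net1, an exchange factor for the GTPase RhoA, was at 89.1, 80.5 and 82.5 CPM against 52.3, 58.2 and 50.1 CPM at day 0 and at 131, 121 and 97.5 CPM against 60.1, 67.2 and 63.5 CPM at day 2 (log2 fold change -0.76, adjusted p = 0.000804). In all of them the lines were apart at both days, and Chd3 differed by nearly the same log2 amount at day 0 (-0.81) and day 2 (-0.85).

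Sulf2, an extracellular sulfatase of heparan sulfate, and Sdc1, a proteoglycan that carries such chains, were both lower in FHL2. Sulf2 was at 211, 219 and 244 CPM in control and 135, 163 and 147 CPM in FHL2 at day 0, and at 658, 533 and 515 CPM and 389, 387 and 319 CPM at day 2 (log2 fold change -0.62, adjusted p = 0.00109). Sdc1 was at 159.6, 150.02 and 158 CPM against 117, 112 and 124 CPM at day 0 and at 450.1, 428 and 426 CPM against 329, 315 and 312 CPM at day 2 (log2 fold change -0.43, adjusted p = 0.00103). Among secreted proteins that were higher, Ptx3, a pattern recognition protein of innate immunity, was at 119, 119 and 114 CPM against 173, 169 and 156 CPM at day 0 and at 66.9, 77.2 and 48.8 CPM against 101, 104 and 105 CPM at day 2 (log2 fold change 0.59, adjusted p = 0.00675). Serpinf1, the anti-angiogenic factor PEDF, was at 1437, 1478 and 1455 CPM against 1833, 1742 and 1778 CPM at day 0 and at 1097, 882 and 1104 CPM against 1407, 1346 and 1395 CPM at day 2 (log2 fold change 0.36, adjusted p = 0.00834). The small heat shock protein gene Hspb8 had a log2 fold change of 0.62 (adjusted p = 0.00999) and was called in 11 of the 12 fits, with an adjusted p of 0.0519 without control day 2 replicate 2. Its relative Cryab had 0.60 (adjusted p = 0.0239) and was called in 6.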
